A study of Mus musculus with 6 samples.

Results

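The miRNAs described here are those numbered 1000 and above, which were annotated after the classical cardiac and conserved families. They were taken by name and position only: every entry counted on the sense strand whose name starts with Mir followed directly by a number of at least 1000 was kept. Mir3107 and the entries of a region each of chromosomes 2 and 12, were left out. This gave 132 mature RNAs from 88 hairpins, of 977 mature miRNAs in the whole series. A further 213 mature RNAs numbered 1000 and above are listed under the prefix mmu-mir- and are not members. The highest number among the members is 5136, while the most abundant prefixed RNA is mmu-mir-7068-3p. The prefixed RNAs and the 550 mature miRNAs numbered below 1000 serve as comparisons.

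The data are 6 small-RNA libraries of heart from male wild-type C57BL/6J mice aged 18 weeks, an inbred laboratory strain. There was no treatment, no other genotype and no other group. The tissue is labelled as whole heart, although the extraction text speaks of the tips of the ventricles. The samples are called heart 1 to heart 6 after their replicate numbers. Nothing in the labels says in words that each library is a separate animal, so p-values concern these samples only and not a wider set of animals. The libraries held between 3966171 and 6007325 counts. Levels are in CPM, reads per 1000000 counts of the library, and 10 reads equal 1.66 to 2.52 CPM.

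A miRNA is cut from a hairpin whose 5′ and 3′ arms can each give a mature RNA, called 5p and 3p, and usually 1 arm is retained in the Argonaute complex while the other is degraded. The seed, the bases near the 5′ end of the mature RNA, sets most of the pairing with target mRNAs. Some late-numbered hairpins are mirtrons, in which a short spliced intron itself folds into the hairpin and the splicing machinery makes the cut that Drosha makes elsewhere. Adapter ligation favours some RNA ends, so levels of different miRNAs are compared here as reads, not as molecules.

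The mature sequences of the members averaging 100 reads or more are shown first, since they hold 48.4% of the reads of the group, with the second 3p product of Mir3102 beside them. They are RefSeq sequences on GRCm38.p6, written 5′ to 3′, with the seed (bases 2 to 8) in capitals.
Mir3102-3p: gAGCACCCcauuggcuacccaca
Mir3102-3p.2: cUCUACUCccugccccagcca
Mir3057-5p: aUUGGAGCugagauucugcgggau
Mir1249-3p: aCGCCCUUcccccccuucuuca
Mir1983-3p: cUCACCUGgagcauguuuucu
Mir1943-5p: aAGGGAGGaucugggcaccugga

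No seed was shared between any pair of the 111 members that have a RefSeq mature sequence. The seed of Mir1943-5p is also that of Mir149-3p, a miRNA numbered below 1000 that had a mean of 0.5 reads per heart. The partner is shown for comparison.
Mir149-3p: gAGGGAGGgacgggggcggugc
In all, 4 of the 111 shared a seed with a miRNA numbered below 1000, and 0 shared one with any of the 20 most abundant miRNAs. The other 3 were Mir1983-3p, Mir3473d-5p with Mir674-5p and Mir5129-3p with Mir455-5p, so 2 of the 17 members averaging 10 reads or more with a sequence shared such a seed, Mir1943-5p and Mir1983-3p.

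The group was present at low levels. Its 132 members together held 7988 reads, a share of 0.0270% ± 0.00244 (SD, n = 6) of all counts, from 0.0232% in heart 1 to 0.0306% in heart 6. A mean of at least 1 read per heart was reached by 69 members (52.3%), of at least 10 reads by 18 (13.6%) and of at least 100 reads by 5 (3.79%), and no member reached 1000. Among the miRNAs numbered below 1000 the same shares were 80.7%, 54.9% and 33.8%, and over all 977 they were 61.2%, 35.5% and 21.2%. The set with the mmu-mir- prefix lay lower, at 23.9%, 3.29% and 0.469%. Its most abundant RNA, mmu-mir-7068-3p, nevertheless stood above every member. It held 2105 of the 4021 reads of that set and averaged 350.8 reads, against 142.5 for the highest member. The median member had 6 reads over the 6 hearts, against 104 for the miRNAs numbered below 1000 and 2 for the prefixed set. These are counts over fixed lists and were not tested against each other. The shares are of mature RNAs with an entry, and every member hairpin with an entry had at least 1 read. They are therefore not shares of all annotated miRNAs.

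**Figure D1:**
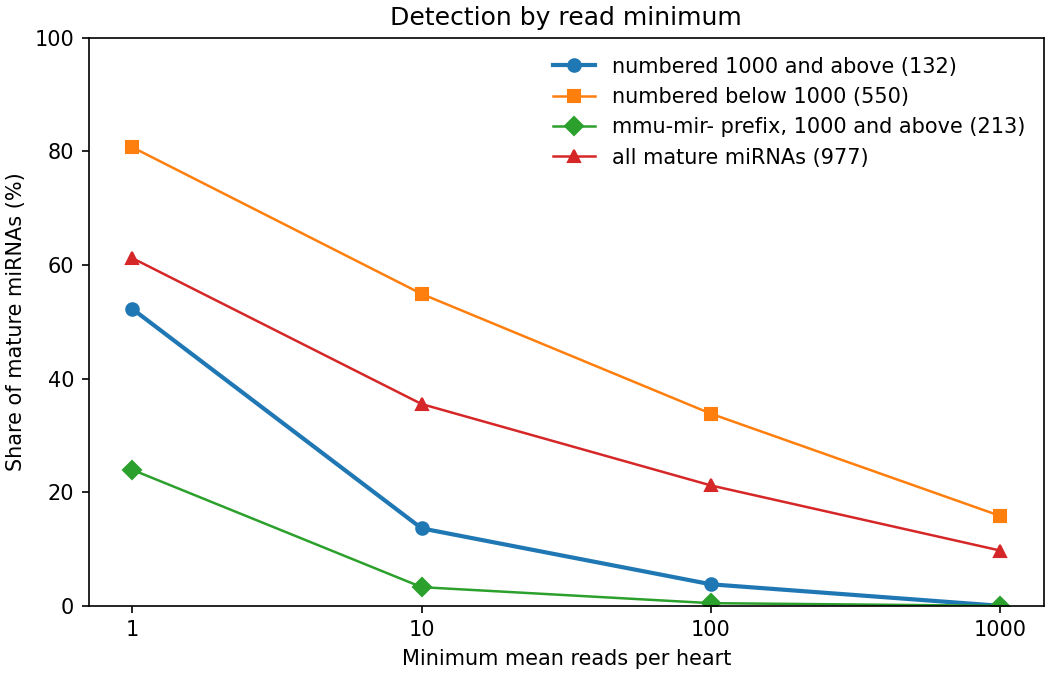
Share of mature miRNAs (%, vertical axis) whose mean reads per heart reached 1, 10, 100 or 1000 (horizontal axis), for 4 sets of miRNAs with an entry. The miRNAs numbered 1000 and above start at 52.3% and fall to 13.6% at 10 reads, below the set numbered under 1000 (54.9%) and above the set with the mmu-mir- prefix (3.29%).

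Detection was uneven within the group. Reads in all 6 hearts were found for 44 members (33.3%), while 35 members (26.5%) rested on a single read. Each library held a read of between 71 and 85 members. The entries cover part of the annotation: of 176 RefSeq hairpins numbered 1000 to 5136, 78 (44.3%) had a member entry. By number, the 54 mature RNAs numbered from 1000 and below 2000 held 55.4% of the reads, and 10 of them averaged 10 reads or more. Those numbered from 3000 and below 5000, 59 in all, held 35.8% with 7 at that level, and the 18 numbered 5000 and above held 8.64% with 1. A list of 13 hairpin names with a human miRNA of the same number was fixed and may not be complete. Of these names, 7 had an entry. Mir1249-3p, Mir1247-5p and Mir1306-5p were the 3 of their 11 mature RNAs that reached a mean of 10 reads.

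The 5 most abundant members held 48.4% of the reads of the group. Mir3102-3p was counted at 25.8, 30.4, 29.1, 30.8, 26.5 and 31.6 CPM in hearts 1 to 6, a mean of 29.0 ± 2.38 CPM (SD, n = 6). Its 6 values lay close together, and for scale Mir22-3p, the most abundant miRNA of these hearts, stood 5190 times higher in CPM. Mir3057-5p gave 7.98, 19.9, 38.6, 33.8, 24.1 and 40.7 CPM, a mean of 27.5 ± 12.5 CPM (SD, n = 6). Heart 1 was lowest and heart 6 highest, a 5.10-fold range, the widest of the 18 members averaging 10 reads or more.

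Mir1249-3p lay at 25.8, 26.4, 25.8, 21.7, 29.96 and 29.99 CPM, a mean of 26.6 ± 3.11 CPM (SD, n = 6), with heart 4 lowest. Mir1983-3p lay at 19.95, 31.2, 23.0, 23.7, 21.6 and 26.2 CPM, a mean of 24.3 ± 3.99 CPM (SD, n = 6), with heart 2 highest. Mir1943-5p lay at 24.8, 24.6, 20.8, 19.2, 25.3 and 24.5 CPM, a mean of 23.2 ± 2.54 CPM (SD, n = 6), with heart 4 lowest. These 3 members stayed within a 1.56-fold range over the 6 hearts.

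The other 13 members averaging 10 reads or more had lower means. Mir5099-3p averaged 18.3 CPM, ranging from 11.99 in heart 5 to 25.8 in heart 1. Mir1981-3p averaged 15.7 CPM (9.45 to 20.2) and Mir1198-5p 15.3 CPM (13.3 to 17.9). Mir3082-3p averaged 9.21 CPM, Mir1964-3p 7.53, Mir1247-5p 7.30, Mir3061-3p 7.08 and Mir1947-5p 7.07. The last 5 were Mir1981-5p at 3.82 CPM, Mir1306-5p at 3.36, Mir3098-5p at 3.29, Mir3102-3p.2 at 2.84 and Mir3061-5p at 2.20. The 18 named members came from 15 hairpins, 9 on the 5p and 9 on the 3p side, and held 86.3% of the reads of the group.

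The remaining 114 members held 1098 reads, with a median of 5 and a highest total of 55 (Mir1948-3p), and at this depth a change between hearts would not be detectable for most of them. Just inside the minimum of 10 reads lay Mir3061-5p with 65 reads in all, and just outside it lay Mir1948-3p with 55, Mir1960-5p with 53 and Mir3060-3p with 52.

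**Figure D2:**
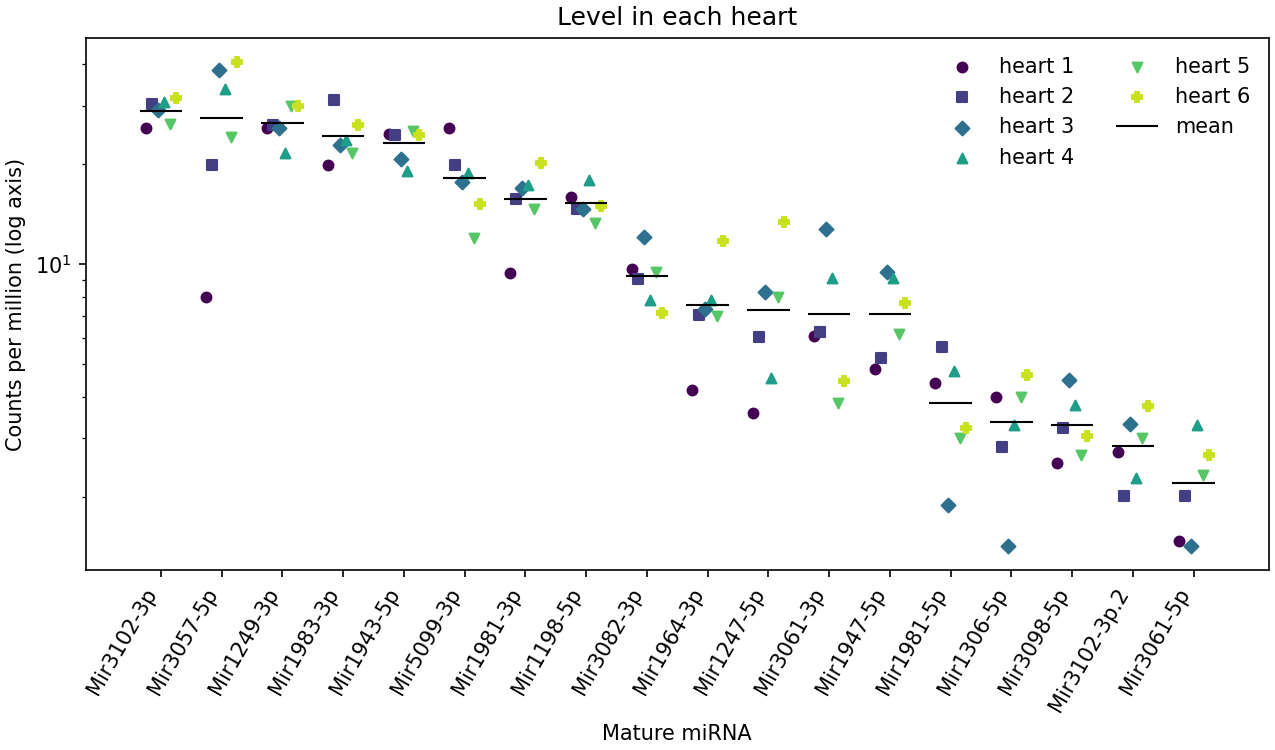
Level of the 18 members averaging 10 reads or more, in CPM on a log axis, with 1 symbol per heart and a line at the mean. Mir3057-5p spreads from 7.98 CPM in heart 1 to 40.7 CPM in heart 6, while Mir3102-3p stays between 25.8 and 31.6 CPM.

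The hairpins sit in varied places of the genome (GRCm38, annotated with GENCODE M21). Of the 88, 50 lay within introns, 15 in an exon of a coding transcript, 9 across a splice site of a coding transcript, 1 in an exon of a noncoding transcript, 4 on the opposite strand of a gene and 9 outside genes. Mir3102 (chr7:100882306-100882409, minus strand) lies in an intron of Arhgef17. Mir3057 (chr10:81271597-81271687, plus strand) crosses a splice site of Apba3. Mir1249 (chr15:84951526-84951623, minus strand) lies in an intron of 5031439G07Rik and Mir1943 (chr15:79375228-79375300, minus strand) in an intron of Tmem184b. Mir1983 (chr13:21896918-21897049, minus strand) lies outside genes of GENCODE and overlaps the RefSeq tRNA gene n-TItat14. Reads of the tRNA and of the hairpin cannot be told apart at this locus.

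Among the others averaging 10 reads or more, Mir1981 lies in an intron of Marc2, Mir1198 of Gripap1, Mir3082 of Stub1, Mir1964 of Zfp84 and Mir1947 of Lmln. Mir3061 lies in the 3′ UTR of Ppp2ca, the catalytic subunit of protein phosphatase 2A, and Mir3098 in the 3′ UTR of Mrpl51. Mir1306 lies in the coding sequence of Dgcr8, the partner of Drosha in miRNA processing. Mir1247 lies in an exon of the noncoding Dio3os and Mir5099 outside genes. Counts by position were similar in the middle: the median hairpin had 10 reads in introns, 5 in coding exons, 9 across splice sites and 8 outside genes.

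**Figure D3:**
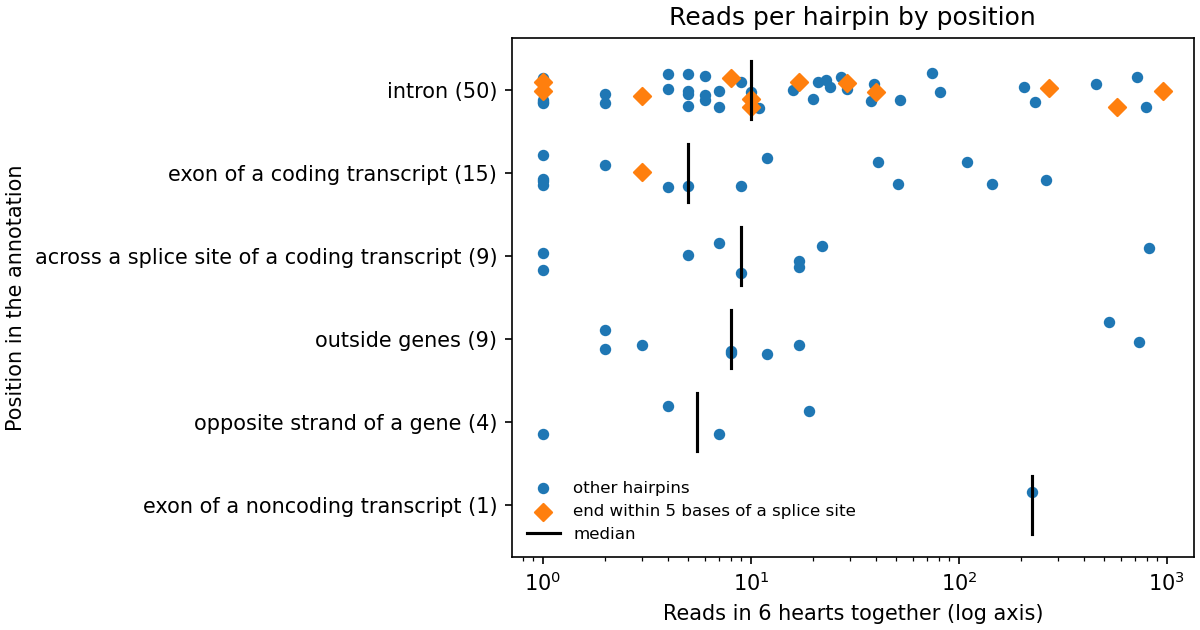
Reads of each of the 88 hairpins over the 6 hearts (log axis) by position in the annotation, with medians as lines and hairpins that end within 5 bases of a splice site as diamonds. The medians of the 4 largest classes lie between 5 and 10 reads, and each of these classes reaches at least 263 reads in its highest hairpin.

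A whole intron was spanned by 4 hairpins, the arrangement of a mirtron: Mir3102 (104 bases), Mir1981 (82 bases, Marc2), Mir1982 (74 bases, Oaz1) and Mir1224 (85 bases, Vwa5b2). They held 19.6% of the reads of the group, nearly all from Mir3102 with 956 reads and Mir1981 with 577, against 29 for Mir1982 and 1 for Mir1224. Another 9 hairpins ended at the downstream end of an intron alone, and 0 at the upstream end alone. The median of the 13 hairpins with an end within 5 bases of a splice site was 10 reads, against 9 for the other 75. Looking at the arms in place of the hairpins, 18 of the 72 hairpins with a 3p entry had a 3p arm that ended within 5 bases of an intron end, while 1 of 59 with a 5p entry had a 5p arm that began as close to an intron start.

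Hairpin sequences of 2 that span an intron and of 1 whose 3p arm ends at the intron end are shown to make these ends visible (RefSeq, GRCm38.p6, 5′ to 3′, arms with an entry in capitals).
Mir1981 (chr1:184822407-184822488, minus strand): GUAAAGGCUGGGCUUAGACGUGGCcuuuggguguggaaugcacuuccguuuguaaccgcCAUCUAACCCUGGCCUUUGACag
Mir1982 (chr10:80828797-80828870, plus strand): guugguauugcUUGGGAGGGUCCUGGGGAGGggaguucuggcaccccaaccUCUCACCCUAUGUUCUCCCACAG
Mir3082 (chr17:25831365-25831428, minus strand): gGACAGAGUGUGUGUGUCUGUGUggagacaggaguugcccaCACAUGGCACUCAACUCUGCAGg
The first 2 begin with GU and end with AG, the letters of an intron's ends. The 5p arm of Mir1981 starts at the first base of its intron, and the 3p arms of Mir1982 and Mir3082 stop at the last base of theirs.

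Mir3102 gave products from 2 nested positions. Its 3p product had 855 reads and the 3p.2 product, which lies directly next to it with 0 bases between, had 85, a ratio of 10.1. The only 5p entry of this hairpin matches by coordinates the inner RefSeq product, 5p.2, and had 16 reads.

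Mir3074-1 lies on the strand opposite to Mir24-1, an abundant miRNA. Its sense entries held 39 reads, while the antisense entries at the same place, which were assigned to Mir24-1, held 77161. The sense reads numbered 5 to 7 in each heart. Another 16 reads, from antisense entries, were assigned to the 5p arm of Mir3074 and were not added to the member.

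Most hairpins that could be tested had a leading arm. The test compared the 5p with the 3p reads of each hairpin within the library (edgeR quasi-likelihood test with Benjamini-Hochberg adjustment over all 213 hairpins with entries of both arms and 10 or more mean reads between them). A call needed an adjusted p under 0.05 and a 2-fold difference. Of 14 member hairpins tested, 13 were called, against 89.2% of all 213. Of these, 6 were called for 5p, where the share over all hairpins was 48.4%, and 7 for 3p, where it was 40.8%. The spread was pooled completely over hairpins in this fit, so all its p-values reflect that assumption, and the smallest are left out.

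The 5p arm led in 6 hairpins. Its reads exceeded those of 3p 81.3-fold in Mir1247 (223 against 2 reads), 68.1-fold in Mir3057 (807 against 11), 46.2-fold in Mir1198 (446 against 9) and 28.3-fold in Mir1943 (693 against 24). Mir1306 was 11.7-fold higher on 5p, with 102 against 8 reads. Mir1960 was 2.47-fold higher on 5p with 53 against 21 reads (edgeR quasi-likelihood adjusted p = 0.000882). In each of these 6 hairpins the 5p arm led in 6 of 6 hearts.

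The 3p arm led in 7 hairpins. Mir3082 had 270 reads on 3p and 1 on 5p, and Mir3102 940 on its 3p products and 16 on 5p.2, a 56.2-fold difference. With its inner pair alone, 3p.2 against 5p.2, the log2 ratio of 5p over 3p for Mir3102 was -2.35. This comparison was added after the data were seen. Mir1983 was 45.6-fold and Mir1964 29.0-fold higher on 3p. Reads of Mir1983 cannot be told apart from those of the tRNA gene it overlaps, so its ratio may not measure arm use alone. The last 3 were milder: Mir1981 was 4.10-fold, Mir3061 2.99-fold and Mir1948 2.08-fold higher on 3p.

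Mir1981 used both arms. Its share of 5p reads was 31.8%, 26.4%, 10%, 21.6%, 17.0% and 13.7% in hearts 1 to 6, and 3p led in 6 of 6 hearts. The shares of Mir3061 were 19.4%, 24.4%, 10%, 26.5%, 37.8% and 37.5%. Heart 3 was the lowest in both. Mir1948 had 26 reads on 5p and 55 on 3p, led on 3p in 5 hearts and was level in heart 5 (edgeR quasi-likelihood adjusted p = 0.00434). Without heart 6 its log2 ratio was -0.82, under the 2-fold minimum, with an edgeR adjusted p of 0.0499.

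Mir3098 was the hairpin that was not called. It had 95 reads on 5p and 50 on 3p, a 1.91-fold difference with an edgeR quasi-likelihood adjusted p of 0.00126. Its 5p arm led in 6 of 6 hearts, with shares from 55.2% to 83.3%. Without heart 2 or without heart 5 its log2 ratio was 1.09 and it passed the 2-fold minimum. Mir1249 (797 reads on 3p), Mir5099 (529 on 3p) and Mir1947 (205 on 5p) had an entry of 1 arm alone and were not tested. The calls therefore cover only hairpins with an entry of both arms.

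**Figure D4:**
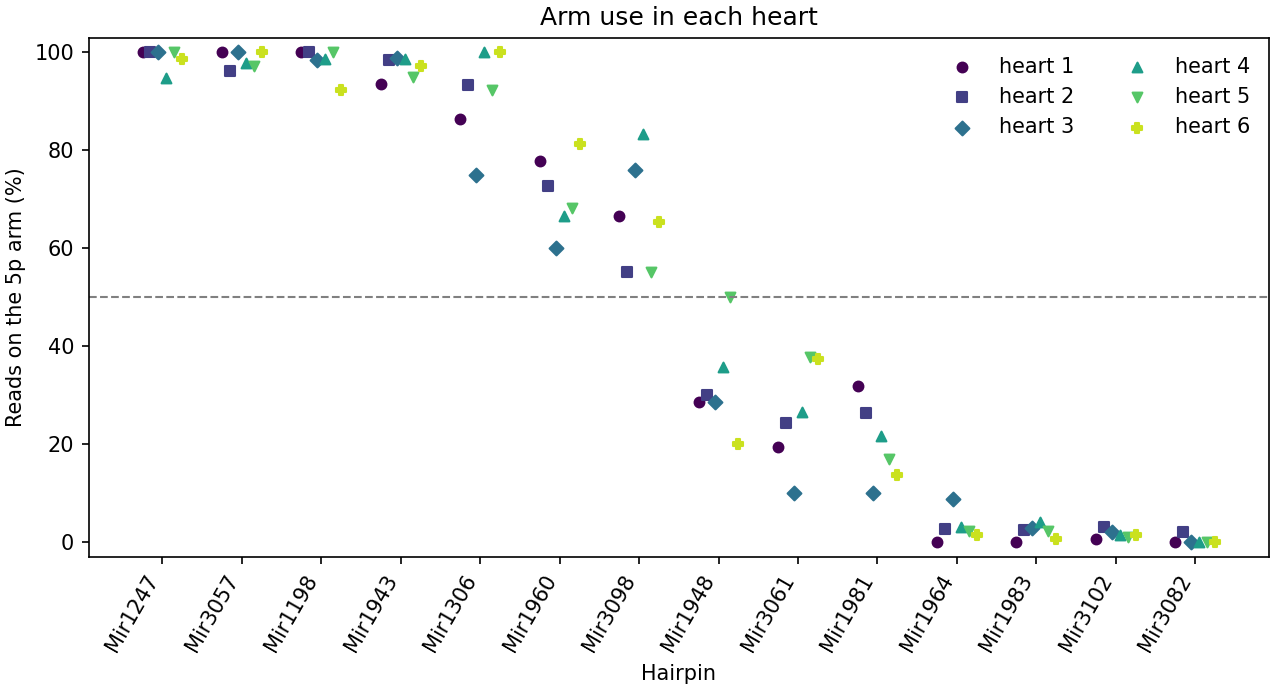
Share of reads on the 5p arm (%) of the 14 hairpins tested, with 1 symbol per heart and a dashed line at 50%. The 6 hearts lie on the same side of the line in 13 hairpins, and Mir1948 touches it in heart 5 at 50%.

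Spread between hearts was tested against counting error with a chi-square test of the 6 counts, adjusted by Benjamini-Hochberg over 347 mature miRNAs averaging 10 reads or more. Of the 18 members tested, 8 varied beyond counting error, against 71.8% of all 347. The share depends on depth, and within the range of 10 to 100 mean reads it was 6 of 13 members (46.2%) and 62 of 140 over all miRNAs (44.3%). At 100 reads and above it was 2 of 5 members, against 187 of 207 (90.3%). These groups differ in depth, since the highest member averaged 142.5 reads and the highest of all miRNAs 740755. Within 50 to 200 mean reads, a closer match, it was 4 of 8 members (50%) and 54 of 86 over all miRNAs (62.8%). The median biological coefficient of variation (BCV, edgeR) was 21.1% for the members and 17.7% for all 347. Each BCV is drawn toward the trend over all 347, so it is not the spread of that miRNA alone. Within 10 to 100 mean reads the medians were 22.1% and 21.3%.

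Mir3057-5p had the highest BCV, 40.6%, followed by Mir1247-5p at 37.3%, Mir3061-3p at 33.9%, Mir1964-3p at 27.1% and Mir1981-5p at 26.3%. Mir3057-5p varied beyond counting error with an adjusted chi-square p of 8.33e-28, and with heart 1 left out that p was 1.32e-10. Mir1247-5p was lowest in heart 1 at 3.57 CPM and highest in heart 6 at 13.4. Mir3061-3p was lowest in heart 5 at 3.83 CPM and highest in heart 3 at 12.8.

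Mir1981-3p, Mir1964-3p, Mir1983-3p, Mir5099-3p and Mir1947-5p completed the 8. The call was lost for Mir1983-3p without heart 2 (adjusted p = 0.325), for Mir1981-3p without heart 1 (0.261) and for Mir1964-3p without heart 6 (0.274). For Mir1947-5p the adjusted p was 0.0391 and was lost in most settings tried. Mir1198-5p (14.6%), Mir3102-3p (15.5%), Mir1943-5p (17.0%), Mir1249-3p (17.3%) and Mir3082-3p (18.4%) had the lowest BCV, and none of these 5 passed the chi-square test on library totals. The CV of CPM lay below that of counting error alone for Mir1198-5p (10.1% against 11.6%) and Mir3102-3p (8.19% against 8.38%). It lay above it for Mir1943-5p, Mir1249-3p and Mir3082-3p.

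**Figure D5:**
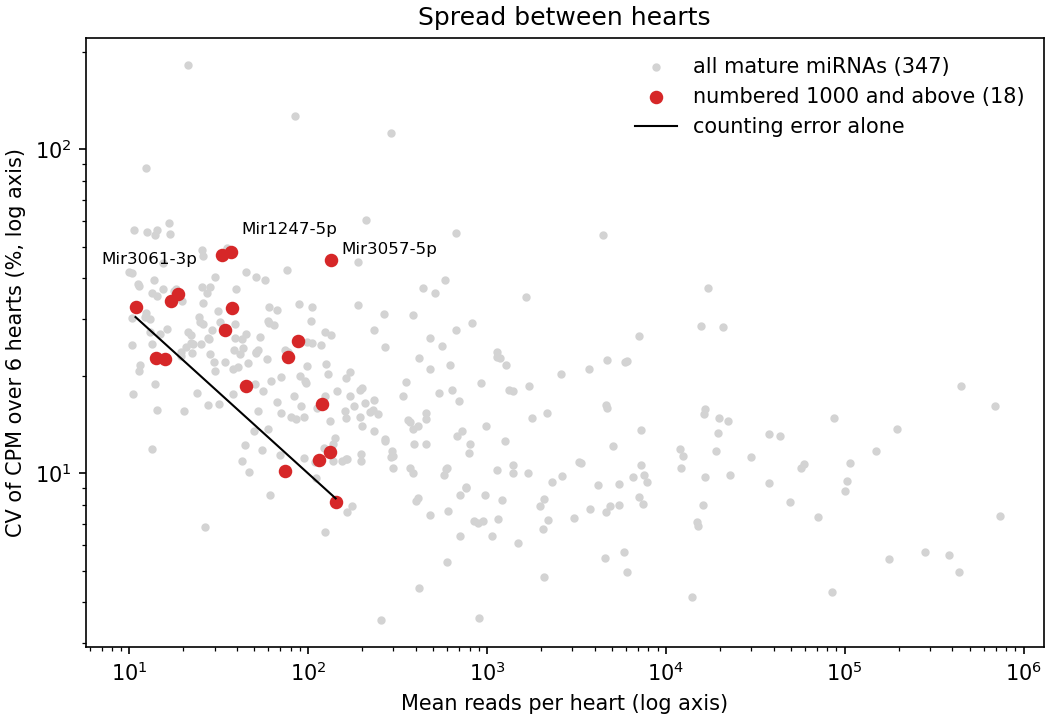
Coefficient of variation of CPM over the 6 hearts (%, log axis) against mean reads per heart (log axis) for 347 miRNAs in grey and 18 members in red, with a line at the spread that counting error alone would give. Mir3057-5p, Mir1247-5p and Mir3061-3p stand above the line, and Mir3102-3p lies at it.

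The extremes were not spread evenly over the hearts. Of the 18 members, 8 were highest in heart 6 and 8 were lowest in heart 1. Marker miRNAs of other tissues also differed between hearts: the summed erythroid markers were highest in heart 1 (2177 to 5692 CPM over the 6 hearts), the liver marker was lowest there (9.03 to 74.4 CPM), and those of pancreas (0.630 to 28.0 CPM) and of sensory and epithelial cells (30.7 to 277 CPM) were highest in heart 4. The cartilage markers were highest in heart 5 at 2083 CPM. Their part in the spread of the members was not tested. The endothelial (83979 to 97257 CPM), smooth muscle (65604 to 113480 CPM), leukocyte (985 to 1485 CPM) and neural markers (19.3 to 25.8 CPM) were found in every heart. The 4 cardiac muscle markers summed to between 94127 and 106440 CPM, and the skeletal muscle marker Mir206-3p was at 0 in 5 hearts and at 0.252 CPM in heart 4. In bulk tissue, fewer cells of a type and less RNA per cell cannot be told apart.

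The sequences of the more abundant members were richer in G and C than those of lower-numbered miRNAs. The median GC content was 59.1% in the 17 members averaging 10 reads or more and a RefSeq sequence, 54.5% in all 111 members with a sequence and 45.5% in 256 miRNAs numbered below 1000 that averaged 10 reads or more. A first base U was found in 2 of those 17, in 35 of 111 (31.5%) and in 113 of 256 (44.1%). These shares are descriptions and were not tested.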

How the data were processed

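Each of the 6 files, per the file headers, gives a count for every named mature arm and its location. These raw counts were used as the authors deposited them. The submitters' processing notes list GRCm38 as the build, with edgeR and DESeq as tools whose roles are not stated. How reads were aligned, counted and shared between copies is not given in the sources used here. Of 1102 entries, 76 were antisense. Of these, 38 were assigned to the hairpin on the opposite strand and 38 (24 to 36 counts per library) were left out. Entries of 1 mature name were summed. CPM used the library totals.

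The members and lists were chosen with earlier results of these data known. Members averaging 10 reads or more were named, with values per heart from 100, and so was each hairpin tested for its arms and the 5 highest and 5 lowest BCV. Arms were fitted with edgeR 4.0.16 in R 4.3.3, with the library as a block. Alternatives used DESeq2 1.42.0, other scalings and minimums, and each heart left out. Library pairs differed beyond sampling noise (chi-square per degree of freedom 55.9 to 303). The scripts were tested on simulated data. The reads carry no molecular identifiers, so counting error is a lower limit. Of 88 hairpins, 78 matched RefSeq, and 111 of 132 entries had a mature sequence.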

Additional observations from a re-analysis of the deposited data

Results flagged for a closer look

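In 4 of the 33 sets of 6 values that were looked at, 1 heart stood apart from the other 5 by Dixon's criterion. Chance alone does this for about 1 in 20 sets of normally distributed values. That rate does not apply to shares close to the end of their scale, so these 4 cannot be read as an excess over chance. All 4 were shares of 5p reads of hairpins with few reads on the minor arm. The share was 92.3% in heart 6 for Mir1198, with 7 reads on 3p, and 94.7% in heart 4 for Mir1247. It was 8.82% in heart 3 for Mir1964 and 2.17% in heart 2 for Mir3082, where it rests on 1 read.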

How the results depend on the processing

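No result changed its direction under the alternatives run. With a minimum of 1 mean read in place of 10, 69 members passed and 25 hairpins were called of 37 tested. With a minimum of 100, 5 members passed, 2 varied beyond counting error and the median BCV was 17.3%. With a minimum of 50, 6 hairpins were called of 6. The share of counts was 0.0311% over sense entries alone and 0.0241% without Mir3102-3p. The median BCV was 22.4% without TMM scaling, 18.9% without hearts 4 and 5, and 20.01% to 22.9% with 1 heart left out. The median CV of TMM-scaled CPM, which unlike the BCV includes counting error, was 25.7%. With 1 heart left out, 18 to 19 members passed, 12 to 14 hairpins were called and 6 to 8 members varied. Without the replicate block, 13 hairpins were called, the same number as with it. The share called over all hairpins is given for the main fit alone (89.2%). The counts of called hairpins under the alternatives therefore show nothing particular to the members. No paired analysis between groups was possible because the samples form 1 group. Mir1249-3p passed the chi-square test under TMM scaling (adjusted p = 0.0284) and DESeq2 size factors (0.0489). Mir1981-5p passed under TMM scaling (0.0475). Mir1947-5p lost its call under TMM scaling (0.0677). The causes were not tested. Depth limits the 114 members under a mean of 10 reads, and for most of them neither arm use nor spread could be measured well. Mir1960 and Mir1948 were called for an arm although both arms of each lay under that mean.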
